A study of Mus musculus with 6 samples.

Results

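The genes described here are 38 transcription factors of the mouse liver, of which 32 are nuclear receptors and 6 belong to other families (FOXA1 to FOXA3, C/EBP alpha and beta, and PROX1). They were chosen by gene symbol, as receptors and factors known from liver biology, and not by a cutoff on their measured values. All 38 symbols matched an Ensembl gene among the 49671 gene entries of the count table, and all 38 passed the filter on low counts. Levels came from RNA-seq of the livers of 6 male C57BL/6J mice, 3 in each of 2 groups. The control group, labelled WT, was SHMT2 fl/fl, in which exons 3 to 12 of Shmt2, the gene of mitochondrial serine hydroxymethyltransferase, are flanked by loxP sites without Cre. The other group, labelled KO, was SHMT2 HKO, which carries the same floxed alleles with Albumin-Cre, a transgene active in cells that express the albumin gene. Mice of both groups ate the AMLN diet, a Western-type food with much fat, fructose and cholesterol, for 18 weeks after an age of 4 weeks, so no liver on another diet enters the comparison. The question was how the loss of SHMT2 in hepatocytes went together with the levels of these regulators in the diet-fed liver.

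Nuclear receptors are transcription factors that carry a zinc-finger domain for DNA and, in most members, a pocket for a small fat-soluble ligand such as a fatty acid, oxysterol, bile acid, steroid, retinoid or thyroid hormone. Several of those in the liver, including the PPARs, LXRs, FXR, CAR, PXR, the retinoic acid receptors and the thyroid hormone receptors, bind DNA together with a retinoid X receptor (RXR), and they set the rates of fatty acid oxidation, sterol and bile acid handling and drug clearance. HNF4A, the FOXA factors, the C/EBPs and PROX1 act beside them to build and hold the hepatocyte programme.

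Gene counts ranged from 23090837 to 34089722 per liver. Shmt2 stood at 93.9 to 109 CPM (the gene's count scaled to the size of its library, after TMM factors) in the 3 SHMT2 fl/fl livers and at 19.3 to 28.3 CPM in the 3 SHMT2 HKO livers, a log2 difference of -2.04 ± 0.16 (SE). The groups did not overlap, and the exact permutation test gave p = 0.1, the smallest that 3 against 3 livers allow. All 8 hepatocyte markers were detected in every liver, with a summed level of 52245 to 65013 CPM in fl/fl and 68431 to 101129 CPM in HKO livers. Of these 3 rose, and 7 of the 8 were below 0 on the log2 scale with ERCC scaling, where 8.60% of all genes were above 0. Markers of other cells differed too. All 6 cholangiocyte markers fell, from a sum of 956 to 1188 CPM in fl/fl to 128 to 246 CPM in HKO livers, and 4 of 7 T, NK and B cell markers fell, from 14.0 to 15.8 CPM to 3.86 to 4.51 CPM. Most of the cholangiocyte sum was Spp1, at 792 to 944 CPM in fl/fl and 104 to 215 CPM in HKO livers. Of 8 stellate cell markers 1 rose and 2 fell, with sums of 486 to 578 CPM in fl/fl and 279 to 530 CPM in HKO livers. Of 7 sinusoidal endothelial markers 3 rose, with sums of 181 to 218 and 271 to 341 CPM, and of 8 Kupffer cell and macrophage markers 3 rose and 2 fell, with sums of 179 to 320 and 310 to 382 CPM. No marker was at 0 in all livers, and the part of cell composition in the results below was not tested. In bulk liver, fewer cells of a type and less RNA per cell cannot be told apart.

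In SHMT2 HKO livers 10 of the 38 receptors and factors rose, by a p under 0.05 from edgeR's quasi-likelihood test after adjustment over 16089 genes by the Benjamini-Hochberg method, which stands behind every adjusted p given here unless another is named. These 10 were Rxrg, Ppara, Pparg, Nr1h3, Nr1h4, Nr1i3, Thrb, Foxa1, Foxa2 and Cebpa, and the only member that fell was Thra. Together they made 11 of 38, or 28.9%, beside 29.0% of all genes tested, which is no more than the background. By direction, 10 of 38 (26.3%) rose beside 12.5% of all genes, and 1 of 38 (2.63%) fell beside 16.5% of all genes. The 3 HKO livers all lay above the 3 fl/fl livers for 16 members (42.1%; 21.9% of all genes) and all below for 3 members (7.89%; 25.0% of all genes), namely Thra, Ppard and Nr1h2. The median log2 difference over the 38 members was 0.20, beside 0.03 over all genes tested, and 29 of the 38 differences were positive (51.9% of all genes). At an unadjusted p under 0.05 there were 17 members, DESeq2 called 16 and limma-voom called 11. Over all 16089 genes tested these counts were 6654, 5414 and 4789, which are the background for the counts by class below too.

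**Figure D1:**
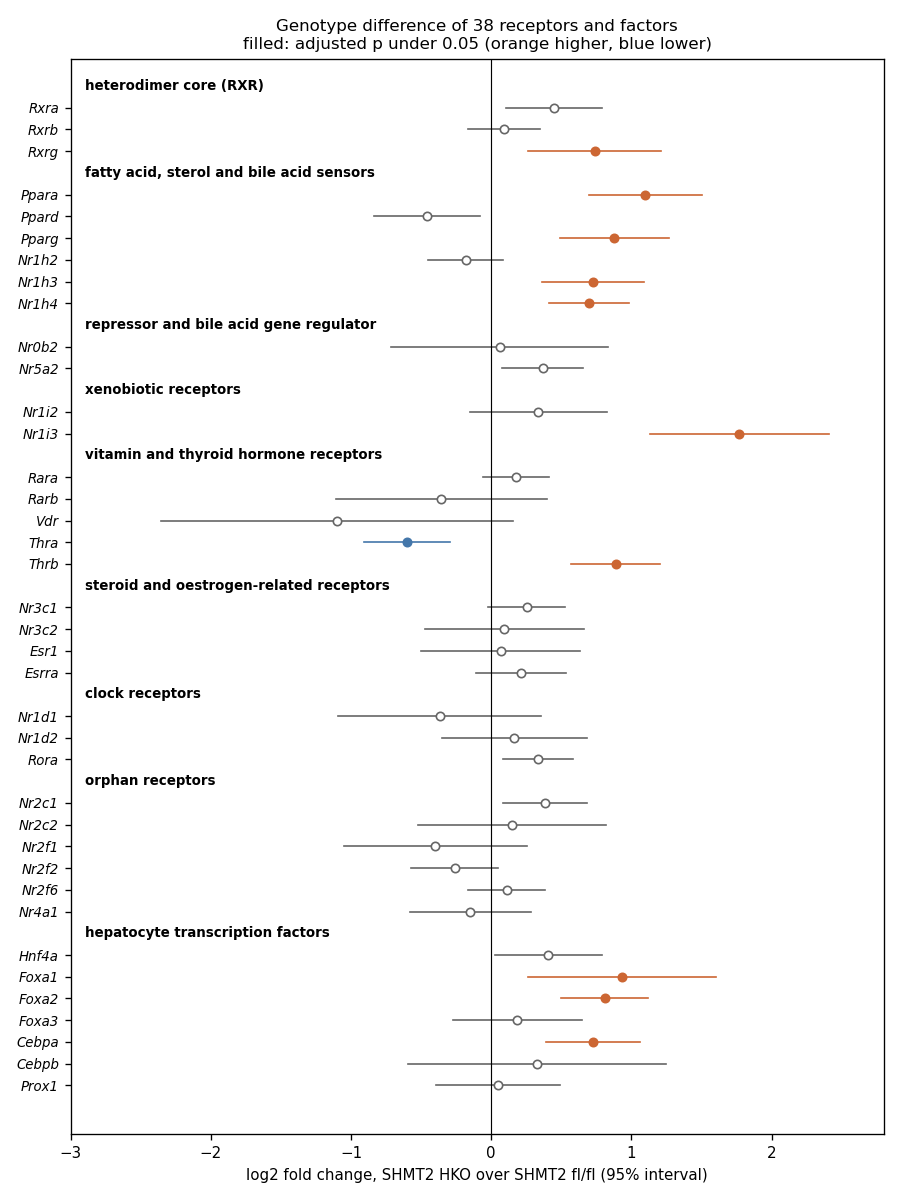
Log2 fold change of each of the 38 members, SHMT2 HKO over SHMT2 fl/fl with TMM scaling (horizontal axis), grouped by class, with 95% intervals from the edgeR fit. Filled points mark the 10 members called higher and Thra, called lower; with ERCC scaling Nr1h3 and Nr1h4 of these move to just below 0.

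The directions depend on how libraries are set against each other, and the plot of the members under 4 scalings shows by how much. Without TMM factors, that is with library size alone, the median gene lay 0.42 lower on the log2 scale than with TMM, and with scaling to the ERCC spike-in RNAs, synthetic transcripts added to the samples, it lay 0.72 lower. The spike-ins took 1.42% to 1.84% of counts in fl/fl livers, and 2.75%, 2.31% and 1.35% in HKO livers 1, 2 and 3. Calls over all genes were 2012 higher and 2651 lower with TMM, 539 and 4923 with library size, 1461 and 3039 with upper-quartile factors, and 107 and 2759 with ERCC scaling. For the 38 members they were 10 and 1, 3 and 4, 9 and 2, and 0 and 1 in the same order. Log2 differences were positive for 51.9%, 20.5%, 45.2% and 8.60% of all genes in that order, and for 29, 11, 26 and 8 of the 38 members. With library size the 3 called higher were Ppara, Nr1i3 and Foxa2, so that the other 7 lost their call, and the 4 called lower were Thra, Ppard, Nr1h2 and Nr2f2. With upper-quartile factors Foxa1 lost its call and the 2 called lower were Thra and Ppard. With ERCC scaling all 10 higher calls and that of Thra (edgeR adjusted p = 0.0520) were lost, and the 1 member called lower was Vdr. Each of the 10 raised members stayed above the median gene in all 4 scalings, by 0.62 to 1.74 on the log2 scale, and Thra stayed 0.63 to 0.66 below it. These genes were picked by their TMM values, and a change of scaling moves a gene and the median by similar amounts. Their place beside the median was thus largely set in advance and is a description only. Against zero, all 10 were positive with library size, and 8 of the 10 were positive with ERCC scaling, where Nr1h3 stood at -0.07 and Nr1h4 at -0.05. Values below are with TMM scaling unless another is named.

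**Figure D2:**
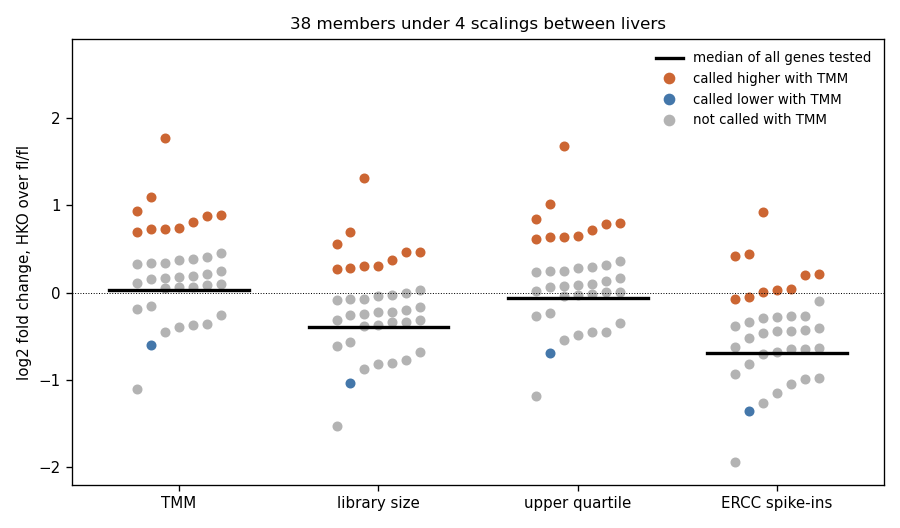
Log2 fold changes of the 38 members (vertical axis, SHMT2 HKO over SHMT2 fl/fl) under 4 ways of scaling livers to each other (horizontal axis), with a black bar at the median of all 16089 genes. The raised members, picked by their TMM values, lie above the bar in each column, which is a description and not a check of scaling. The bar itself lies 0.42 lower with library size and 0.72 lower with ERCC scaling than with TMM. With ERCC scaling Nr1h3 and Nr1h4 stand below 0.

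The RXRs are the shared partners of the other receptors. Rxra, the main RXR of hepatocytes, read 390, 443 and 488 CPM in fl/fl livers 1, 2 and 3 and 622, 594 and 586 CPM in HKO livers 1, 2 and 3. The groups did not overlap, with the lowest HKO liver 3 above the highest fl/fl liver 3, but the log2 difference of 0.45 ± 0.15 (SE) did not pass the test (edgeR adjusted p = 0.0535) and was -0.27 with ERCC scaling. DESeq2 and limma-voom did call it. Rxrb differed by 0.09 (95% interval -0.17 to 0.35). Rxrg, best known from muscle and brain, was the scarcest of the family and read 6.60, 5.98 and 5.14 CPM in fl/fl livers and 8.06, 12.3 and 9.25 CPM in HKO livers. Every HKO liver was above every fl/fl liver, and Rxrg rose by 0.74 ± 0.21 on the log2 scale (edgeR adjusted p = 0.0297). That call was lost on leaving out any of the fl/fl livers or HKO liver 2, with adjusted p up to 0.119. Per kb of exon, which allows genes to be compared, Rxra made up 82.3% to 86.4% of the RXR signal in all 6 livers and Rxrg 2.12% to 4.15%.

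The PPARs sense fatty acids and their derivatives. Ppara, which drives fatty acid oxidation in hepatocytes, read 37.5, 45.3 and 53.1 CPM in fl/fl livers and 78.5, 107 and 106 CPM in HKO livers. The lowest HKO liver was well above the highest fl/fl liver, and Ppara was 2.14-fold higher (log2 1.10 ± 0.18, edgeR adjusted p = 0.00369). Pparg, the fat-storage receptor of adipose tissue that is also raised in fatty liver, read 21.7, 15.1 and 19.2 CPM in fl/fl and 31.3, 31.7 and 40.1 CPM in HKO livers. It was 1.84-fold higher without overlap (log2 0.88 ± 0.17, edgeR adjusted p = 0.00725). Both calls held when any single liver was left out, but that of Pparg was lost with library size (edgeR adjusted p = 0.142) and both were lost with ERCC scaling (edgeR adjusted p = 0.522 for Ppara and 0.757 for Pparg). Ppard, the broadly expressed PPAR, went the other way at 19.2, 24.2 and 21.7 CPM in fl/fl and 13.0, 18.7 and 15.7 CPM in HKO livers. Its groups did not overlap, but the log2 difference of -0.46 did not pass the test with TMM (edgeR adjusted p = 0.0692). It was called lower with library size (log2 -0.88, edgeR adjusted p = 0.00951) and with upper-quartile factors (log2 -0.55, edgeR adjusted p = 0.0364).

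The liver X receptors sense oxysterols and switch on sterol export and lipid synthesis. Nr1h3, which encodes LXR alpha, the form enriched in liver, read 94.7, 106 and 110 CPM in fl/fl livers and 198, 178 and 138 CPM in HKO livers. All HKO livers were higher, liver 3 least so, and Nr1h3 rose by 0.73 ± 0.16 on the log2 scale with TMM but stood at -0.07 with ERCC scaling (edgeR adjusted p = 0.0119 with TMM). Without fl/fl liver 1 its adjusted p was 0.0554. Nr1h2, which encodes the ubiquitous LXR beta, was at 62.0, 67.4 and 64.0 CPM in fl/fl and 59.6, 60.3 and 50.3 CPM in HKO livers, a log2 difference of -0.18 (95% interval -0.45 to 0.08). Nr1h4 encodes FXR, the bile acid receptor that holds down bile acid synthesis. It read 105, 93.2 and 92.2 CPM in fl/fl and 153, 172 and 146 CPM in HKO livers, which do not overlap, and rose by 0.70 ± 0.12 with TMM but stood at -0.05 with ERCC scaling (edgeR adjusted p = 0.00564 with TMM). Leaving out any single liver kept that call.

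SHP and LRH-1 act downstream of and beside FXR in the control of bile acid synthesis. Nr0b2, which encodes the co-repressor SHP, was at 14.2, 19.6 and 24.2 CPM in fl/fl and 11.5, 19.0 and 29.9 CPM in HKO livers. The HKO livers held both the lowest and the highest value, and the log2 difference was 0.06 (95% interval -0.72 to 0.83), a sign that turned in several alternatives including library size and ERCC scaling. Nr5a2, which encodes LRH-1, an activator of Cyp7a1 and Cyp8b1, read 45.8, 39.1 and 41.8 CPM in fl/fl and 59.6, 56.1 and 47.9 CPM in HKO livers. Those groups did not overlap, with a log2 difference of 0.37 (edgeR adjusted p = 0.0593) that turned to -0.07 with library size and -0.41 with ERCC scaling. In this class 0 of 2 members were called by edgeR and 0 by limma-voom, DESeq2 called 1, and 1 had an unadjusted p under 0.05.

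The largest difference of all 38 members was that of Nr1i3. It encodes CAR, the constitutive androstane receptor that induces enzymes of drug and bilirubin clearance. Nr1i3 (ENSMUSG00000005677, chr1:171213970-171220701 on the plus strand of GRCm38) read 33.2, 52.7 and 38.2 CPM in fl/fl livers 1, 2 and 3 and 159, 174 and 88.9 CPM in HKO livers 1, 2 and 3. HKO liver 3 lay far below the other two HKO livers yet above every fl/fl liver. Nr1i3 was 3.41-fold higher (log2 1.77 ± 0.28, edgeR adjusted p = 0.00369), and without any single liver the log2 difference was 1.59 to 1.99 with the call kept. Of its 4414 exon bases in the GENCODE annotation, 74.9% overlap Tomm40l on the other strand. The use of strand in counting was not stated, so reads of the 2 genes in the overlap cannot be told apart. Tomm40l itself read 11.5 to 15.7 CPM in fl/fl and 13.7 to 21.1 CPM in HKO livers, which overlap. Nr1i2 encodes PXR, the sister receptor of CAR, and read 88.9, 135 and 103 CPM in fl/fl and 102, 159 and 152 CPM in HKO livers. The groups overlapped, with a log2 difference of 0.34 (95% interval -0.15 to 0.82) that turned to -0.08 with library size and -0.29 with ERCC scaling.

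The thyroid hormone receptors split by isoform. Thrb, which encodes the main thyroid hormone receptor of hepatocytes, read 15.8, 12.4 and 13.3 CPM in fl/fl and 24.5, 24.6 and 27.8 CPM in HKO livers. The HKO livers lay close together and above all fl/fl livers, and Thrb was 1.85-fold higher (log2 0.89 ± 0.14, edgeR adjusted p = 0.00333), a call kept without any single liver but lost with library size (log2 0.47, edgeR adjusted p = 0.0957) and with ERCC scaling (log2 0.20, edgeR adjusted p = 0.780). Thra, the form that prevails in heart, bone and many non-hepatocyte cells, read 34.2, 38.5 and 33.3 CPM in fl/fl and 26.9, 22.1 and 20.9 CPM in HKO livers. Every HKO liver was below every fl/fl liver, and Thra fell by 0.60 on the log2 scale (SE 0.13, edgeR adjusted p = 0.0130). Without fl/fl liver 2 its adjusted p was 0.0570. Thra (chr11:98740638-98769006, plus strand) and Nr1d1 (chr11:98767932-98775333, minus strand) lie tail to tail and share 263 exon bases on opposite strands, where reads cannot be told apart. Nr1d1 overlapped between the groups.

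Among the members, the retinoic acid receptors Rara and Rarb and the vitamin D receptor Vdr gave no call with TMM. Rarg, a retinoic acid receptor that is not a member, was called lower and is described below. Rara, the retinoic acid receptor alpha, was among the steadiest members at 30.4, 31.5 and 32.4 CPM in fl/fl and 34.1, 36.0 and 36.5 CPM in HKO livers. Its HKO livers were all higher, by a log2 difference of 0.18 (edgeR adjusted p = 0.232) that turned to -0.24 with library size and -0.52 with ERCC scaling. Rarb, which is mostly found in stellate cells in the liver, read 6.40 to 7.80 CPM in fl/fl and 2.76, 7.24 and 6.42 CPM in HKO livers. HKO liver 1 stood apart on the low side, and the log2 difference of -0.36 did not pass the test (edgeR adjusted p = 0.454); 34.1% of its exon bases overlap Top2b on the other strand. Vdr, the vitamin D receptor, was the scarcest member at 0.391 to 0.685 CPM in fl/fl and 0.101 to 0.424 CPM in HKO livers, with 2 to 28 counts a liver, and its log2 difference had a 95% interval of -2.36 to 0.16. With ERCC scaling it was called lower, at -1.94 (edgeR adjusted p = 0.0472).

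Of the 4 steroid and oestrogen-related receptors, 0 were called by edgeR, DESeq2 or limma-voom and 0 had an unadjusted p under 0.05. Esrra, a regulator of mitochondrial genes, had the highest level per kb of exon and read 50.6, 67.5 and 57.1 CPM in fl/fl and 61.1, 73.3 and 69.0 CPM in HKO livers. The groups overlapped, with a log2 difference of 0.22. The glucocorticoid receptor gene Nr3c1 differed by 0.25 (95% interval -0.02 to 0.52), the mineralocorticoid receptor gene Nr3c2 by 0.09 (-0.48 to 0.66) and the oestrogen receptor gene Esr1 by 0.07 (-0.50 to 0.63). All 4 differences were negative with library size and with ERCC scaling, where only 20.5% and 8.60% of all genes were positive. These intervals leave room for modest differences in either direction.

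REV-ERB and ROR receptors compete for the same DNA elements and set the daily rhythm of liver genes. Nr1d1, which encodes REV-ERB alpha, read 94.3, 48.1 and 104 CPM in fl/fl and 84.8, 60.3 and 46.2 CPM in HKO livers. It was among the most variable members within a group, with a coefficient of variation of 36.5% in fl/fl and 30.6% in HKO livers, and its log2 difference was -0.37 (95% interval -1.09 to 0.36). Nr1d2, which encodes REV-ERB beta, differed by 0.17 (-0.35 to 0.68). Rora was the steadiest member in fl/fl livers, with 45.5, 46.7 and 45.0 CPM and a coefficient of variation of 1.90%. It read 53.2, 57.2 and 62.2 CPM in HKO livers, all higher, with a log2 difference of 0.33 that came just short of the threshold (edgeR adjusted p = 0.0503) and turned to -0.08 with library size and -0.34 with ERCC scaling. Among the 3 clock receptors edgeR and limma-voom called 0, DESeq2 called 1, and 1 had an unadjusted p under 0.05.

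The 6 orphan receptors lack an established natural ligand in the liver. Nr2f6, the most abundant per kb of exon, read 101, 108 and 113 CPM in fl/fl and 126, 113 and 108 CPM in HKO livers, which overlap, and 54.4% of its exon bases overlap Ocel1 on the other strand. Nr2c1, a repressor also called TR2, was steady in fl/fl livers at 13.6, 13.4 and 13.0 CPM and higher in all HKO livers at 15.6, 17.5 and 19.1 CPM. Its log2 difference of 0.38 did not pass the test (edgeR adjusted p = 0.0576) and turned to -0.03 with library size and -0.28 with ERCC scaling. Log2 differences were 0.15 for Nr2c2, -0.40 for Nr2f1, -0.26 for Nr2f2, 0.11 for Nr2f6 and -0.15 for Nr4a1, an immediate early gene, each with an interval that spans 0. EdgeR and limma-voom called 0 of the 6, DESeq2 called 1, and 1 had an unadjusted p under 0.05.

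Among the hepatocyte transcription factors, the 3 that rose were pioneer factors and a master regulator of hepatocyte metabolism. Cebpa, which drives gluconeogenic and urea cycle genes, had the highest level of all 38 members per kb of exon, at a mean of 165 CPM per kb in fl/fl and 272 CPM per kb in HKO livers. It read 421, 400 and 481 CPM in fl/fl and 694, 710 and 747 CPM in HKO livers. The groups lay far apart relative to their spread, and Cebpa rose by 0.72 ± 0.15 on the log2 scale (edgeR adjusted p = 0.00901), with an adjusted p of 0.0556 without fl/fl liver 2. Foxa2, a factor that opens liver chromatin and is held back by insulin, read 26.4, 28.4 and 30.6 CPM in fl/fl and 50.2, 56.8 and 42.6 CPM in HKO livers. It was 1.75-fold higher without overlap (log2 0.81 ± 0.14, edgeR adjusted p = 0.00444) and stayed called without any single liver.

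Foxa1, the close relative of Foxa2, was tight in fl/fl livers at 12.2, 11.2 and 12.3 CPM but spread out in HKO livers at 19.0, 14.5 and 34.6 CPM. HKO liver 3 stood far above the other two, and the log2 difference of 0.94 ± 0.29 (edgeR adjusted p = 0.0443) shrank to 0.47 without it. The call was lost on leaving out any of the fl/fl livers, with limma-voom (adjusted p = 0.0537) and with no filter on low counts (adjusted p = 0.123). Foxa3, in contrast, overlapped between the groups at 45.2 to 81.3 CPM in HKO livers, with a log2 difference of 0.19. Hnf4a, the receptor that anchors the hepatocyte programme, read 410, 481 and 560 CPM in fl/fl and 591, 654 and 679 CPM in HKO livers. Its groups did not overlap, but the log2 difference of 0.41 (edgeR adjusted p = 0.101) did not pass the test and was -0.0055 with library size and -0.27 with ERCC scaling. Cebpb, the C/EBP of the acute phase, was the most variable of the class at 90.8, 174 and 105 CPM in fl/fl and 85.3, 135 and 243 CPM in HKO livers. Prox1, a co-repressor of HNF4A and LRH-1, overlapped between the groups at 92.0 to 125 CPM in fl/fl and 90.7 to 142 CPM in HKO livers, with a log2 difference of 0.05 (95% interval -0.39 to 0.49).

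**Figure D3:**
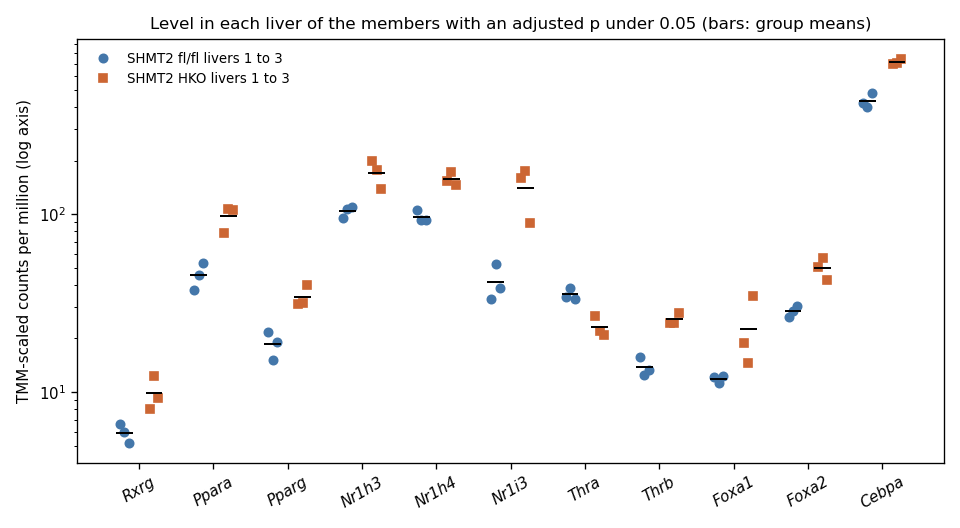
Level of the 11 called members in each of the 6 livers (vertical log axis, TMM-scaled CPM), with circles for SHMT2 fl/fl, squares for SHMT2 HKO and bars for the means of 3 livers. No gene overlaps between the groups, HKO liver 3 lies below the other HKO livers for Nr1i3 and above them for Foxa1, and the directions drawn are those with TMM scaling, from which Nr1h3 and Nr1h4 depart with ERCC scaling.

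Ratios of related receptors within a liver do not depend on how livers are scaled to each other. They were chosen after the values were seen and are given as a description, on counts per kb of exon. Ppara was 3.83, 3.67 and 4.79 times Ppard in fl/fl livers and 11.8, 11.2 and 13.3 times Ppard in HKO livers, so that the groups lay far apart. Thra was 3.47, 4.98 and 4.03 times Thrb in fl/fl livers and 1.76, 1.44 and 1.21 times Thrb in HKO livers. Hence Thrb made up 16.7% to 22.4% of the thyroid hormone receptor signal in fl/fl and 36.2% to 45.3% in HKO livers. Nr1h3 was 2.04, 2.10 and 2.29 times Nr1h2 in fl/fl and 4.43, 3.93 and 3.65 times Nr1h2 in HKO livers. The ratio of Nr1i3 to Nr1i2 was almost constant in fl/fl livers at 0.216, 0.227 and 0.215, although both genes varied, and was 0.905, 0.636 and 0.339 in HKO livers. The overlap of 74.9% of the Nr1i3 exon bases with Tomm40l limits this ratio too. HKO liver 3 was the HKO liver nearest to the controls in the ratios of Nr1i3 to Nr1i2 and of Nr1h3 to Nr1h2. In those of Ppara to Ppard and of Thra to Thrb it was the farthest.

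For some families the ratios overlapped between the groups. The ratio of Ppara to Pparg was 1.33, 2.31 and 2.14 in fl/fl and 1.93, 2.59 and 2.04 in HKO livers. Overlap was also seen for Cebpa to Cebpb and for Nr3c1 to Nr3c2. Among the retinoic acid receptors, Rara made up 45.9% to 47.5% of the signal in fl/fl and 65.0% to 76.1% in HKO livers, beside a lower Rarg, the third member of that family. Foxa2 was 0.413 to 0.484 times Foxa3 in fl/fl and 0.531 to 0.814 times Foxa3 in HKO livers, without overlap.

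**Figure D4:**
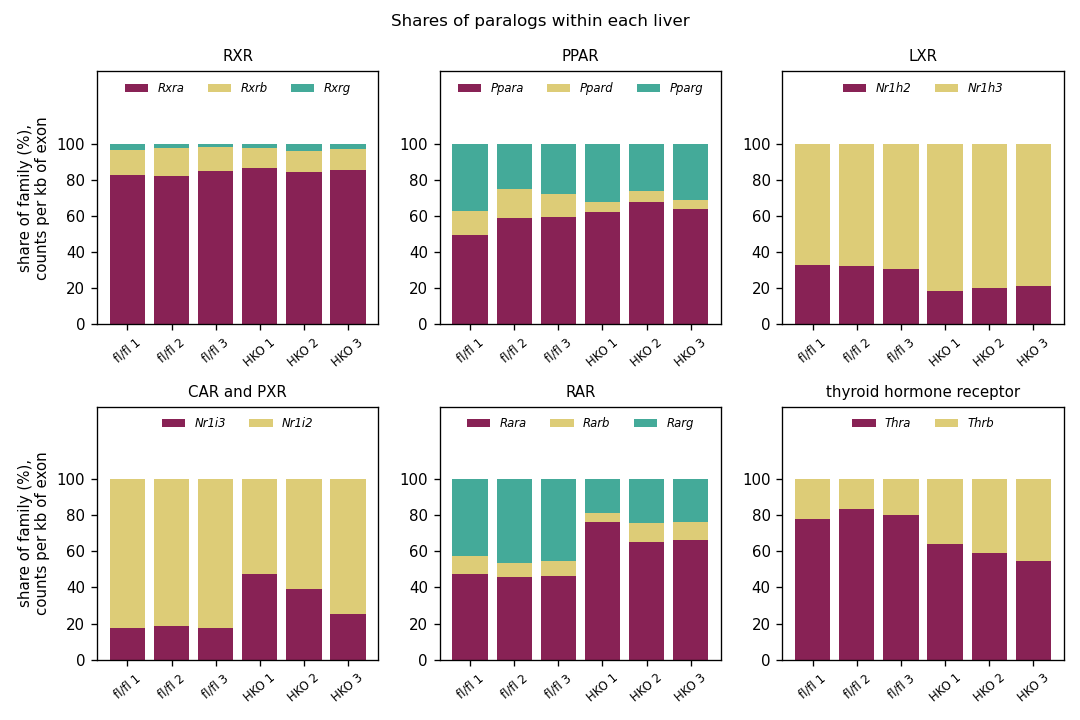
Share of each related gene in the summed signal of its family (vertical axis, percent of counts per kb of exon) in each of the 6 livers (horizontal axis), for 6 receptor families. Nr1h3, Nr1i3, Rara and Thrb take a larger share in each SHMT2 HKO liver than in any SHMT2 fl/fl liver, Ppard a smaller one, and Rxra is above 82% in every liver. Of the exon bases of Nr1i3, 74.9% overlap Tomm40l on the other strand.

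To show the DNA beside these members, promoter windows from 250 bases before to 50 bases after each annotated start were read from RefSeq (GRCm38.p6). There were 53 windows for 36 of the 38 genes, with Thra and Nr3c1 not matched. The hexamer AGGTCA, the core letters that most RXR partners bind, was searched on both strands and was found in 9 of the 53 windows (17.0%), beside 16.3% of 32851 windows over all genes. It lay in windows of 8 of the 36 genes. Of these Nr1h4, Thrb, Pparg and Rxrg were among the 10 that rose, and Nr1d2, Nr5a2, Rara and Rxra were not called. Some genes have several windows, and a share by gene over all genes was not computed. Stretches around the hexamer are shown for the 4 that rose, with it or its reverse complement in capitals.
Nr1h4 (chr10:89506843-89506896, minus strand): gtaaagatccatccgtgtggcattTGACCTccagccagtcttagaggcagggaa
Thrb (chr14:17660752-17660805, plus strand): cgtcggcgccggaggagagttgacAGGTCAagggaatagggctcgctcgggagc
Pparg, upstream start (chr6:115361092-115361145, plus strand): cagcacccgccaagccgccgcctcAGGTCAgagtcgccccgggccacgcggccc
Pparg, downstream start (chr6:115362316-115362369, plus strand): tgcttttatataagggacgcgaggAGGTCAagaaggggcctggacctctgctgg
Rxrg (chr1:167618153-167618206, plus strand): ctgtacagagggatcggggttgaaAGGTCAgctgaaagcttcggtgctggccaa
The hexamer began 214 bases before the start in Nr1h4, 184 in Thrb, 28 and 9 at the 2 starts of Pparg shown, and 88 in Rxrg. A further Pparg window (chr6:115421816-115422115), downstream of both, held no AGGTCA, and nor did a further Thrb window (chr14:17981394-17981693). A match of letters is a description of the window and not a binding site.

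Other motifs were searched in the same windows, again on both strands. The forkhead letters TGTTTAC were in 3 of 53 member windows (5.66%; 3.65% of all windows), including that of Foxa1, itself a forkhead gene. The C/EBP pattern TTGCNNAA was in 8 (15.1%; 10.8% of all), the E-box CACGTG in 5 (9.43%; 7.15% of all), the GC box GGGCGG in 29 (54.7%; 35.7% of all) and the HNF4 letters CAAAGTCCA in 0 (0.475% of all). The Foxa1 stretch with its forkhead letters in capitals, and the 250 bases before the start of Nr1i3, the member with the largest difference, with its E-box in capitals, are the following.
Foxa1 (chr12:57546222-57546276, minus strand): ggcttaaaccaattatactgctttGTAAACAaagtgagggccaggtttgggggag
Nr1i3 (chr1:171213720-171213969, plus strand): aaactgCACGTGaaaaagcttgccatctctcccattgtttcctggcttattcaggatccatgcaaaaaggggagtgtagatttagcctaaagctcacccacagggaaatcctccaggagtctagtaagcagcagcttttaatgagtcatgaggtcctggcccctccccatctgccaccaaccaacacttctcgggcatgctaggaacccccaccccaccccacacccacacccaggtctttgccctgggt
The forkhead letters began 141 bases before the start of Foxa1, and the E-box 244 bases before that of Nr1i3. No AGGTCA was found in the Nr1i3 window, which says only that these letters are not in these bases.

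Known targets of the receptors were then read from lists compiled by hand, for the calls beside 12.5% higher and 16.5% lower of all genes. These lists and those further below were chosen with earlier results of these data known, so their counts are a description. Positive differences made up 51.9% of all genes with TMM, 20.5% with library size and 8.60% with ERCC scaling. All 5 thyroid hormone receptor targets rose with TMM, by a median log2 difference of 1.55 (0.03 over all genes), and with ERCC scaling 3 of the 5 were positive and 1 was called. They included Thrsp, a lipogenic factor (2.81), Me1, malic enzyme (1.86), Dio1, the deiodinase that activates thyroid hormone (1.55), and Gpd2, the mitochondrial glycerophosphate dehydrogenase (0.60). Of 17 PPAR alpha targets, 10 rose and 0 fell, with a median of 0.73, while with ERCC scaling 10 of the 17 were positive and 0 were called. They included Fabp1, a fatty acid binding protein (1.68), and Vnn1, a pantetheinase (1.13). With library size 3 of the 17 were called. Of 6 PPAR gamma targets of the fatty liver, 2 rose, the lipid droplet gene Cidea (4.26) and the acyltransferase gene Mogat1 (1.96), with a median of 0.69.

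FXR and SHP targets held 3 that rose and 0 that fell of 6 tested. The 3 were Cyp8b1, the sterol hydroxylase that makes cholic acid (2.45), Slc10a1, the bile acid importer NTCP (2.20), and Abcb11, the bile salt export pump (0.81). FXR and SHP are known to hold down the first pair and FXR to raise the export pump. Of 9 LXR targets, Scd1, the stearoyl-CoA desaturase (1.30), and Lpcat3, which remodels phospholipids (0.54), rose with TMM (0 of the 9 with library size or ERCC scaling) while Abcg1, a sterol exporter of macrophages and other cells, fell by 1.09 on the log2 scale, and the median was 0.04. Of 9 CAR and PXR targets, Ugt1a1, the bilirubin glucuronosyltransferase, rose (1.28) and Cyp2c55 fell by 1.88 on the log2 scale, with a median of 0.28. Cyp2b10, the classic CAR target and named after its values were seen, was at 2.52, 6.36 and 7.54 CPM in fl/fl and 0.297, 5.67 and 1.77 CPM in HKO livers (edgeR adjusted p = 0.377). Its groups overlapped, with the lowest value in an HKO liver. Cyp3a11, the most abundant of the list and also named after its values were seen, read 2700, 3915 and 3498 CPM in fl/fl livers. In HKO livers it read 1286, 2121 and 2438 CPM, all lower, but the log2 difference of -0.79 did not pass the test (edgeR adjusted p = 0.0593). Of the 9 targets, 5 differences were positive and 4 negative with TMM.

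All 7 HNF4A targets rose with TMM, by a median of 0.82. With ERCC scaling 3 of the 7 were positive, beside 8.60% of all genes, and 0 were called. Among them were Apoa2 (1.55) and Apoc3 (1.16), which encode apolipoproteins, and Mttp, the lipid loader of lipoproteins (1.04). Ttr, also a hepatocyte marker on which the groups overlap, was at the threshold (0.82, edgeR adjusted p = 0.0498). Of 10 glucocorticoid receptor targets and 3 tested retinoic acid receptor targets edgeR and limma-voom called 0, with 2 and 1 at an unadjusted p under 0.05 and 2 and 0 called by DESeq2. All calls under the other scalings were lower ones, of 2 glucocorticoid receptor targets with library size, 2 with upper-quartile factors and 3 with ERCC scaling, and of 2, 0 and 1 retinoic acid receptor targets. Of the 18 coregulators, Ncor1, the co-repressor (0.38), and Tbl1xr1, a subunit of its complex (0.36), rose and 0 fell with TMM, by a median of 0.05 over the list, but both genes were negative with library size and ERCC scaling.

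**Figure D5:**
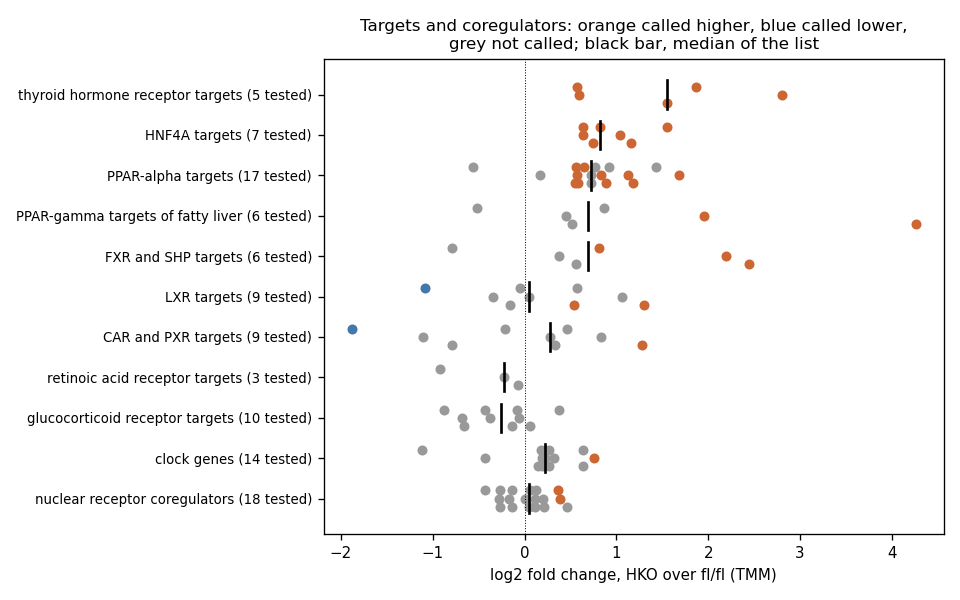
Log2 fold change of each tested gene (horizontal axis, SHMT2 HKO over SHMT2 fl/fl with TMM scaling) in 11 lists of receptor targets, clock genes and coregulators, with black bars at the medians. The lists were chosen with earlier results of these data known. Thyroid hormone receptor and HNF4A targets lie wholly above 0, while LXR, CAR and PXR targets lie on both sides of it. With ERCC scaling 3 of 5 thyroid hormone receptor targets, 3 of 7 HNF4A targets and 10 of 17 PPAR alpha targets are above 0. Over all genes 8.60% are above 0 with that scaling.

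Of the 17 nuclear receptor genes outside the 38, 9 passed the filter, of which 5 rose and 1 fell (12.5% and 16.5% of all genes). The filter shaped these counts in part, since Esrrg passed it through its HKO livers. Hnf4g did not pass, at 0.313 to 0.391 CPM in fl/fl and 0 to 0.0506 CPM in HKO livers, so it could not count as a fall. With library size 2 of the 9 were called higher and 1 lower, and with ERCC scaling 1 and 1. Rarg, the retinoic acid receptor gamma, read 26.6, 31.1 and 31.0 CPM in fl/fl and 8.23, 13.1 and 12.9 CPM in HKO livers. The groups lay far apart, and Rarg fell by 1.38 on the log2 scale (edgeR adjusted p = 0.00225). Nr1h5, which encodes FXR beta, rose by 1.69 from 0.677 to 1.88 CPM in fl/fl livers to 2.29 to 5.51 CPM in HKO livers. Esrrg and Esrrb, oestrogen-related receptors, were scarce, at 0 to 0.391 and 0.301 to 0.538 CPM in fl/fl and 0.787 to 2.94 and 0.905 to 1.57 CPM in HKO livers, and both were called higher. Nr0b1 and Nr2e3 had no count in any liver.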

How the data were processed

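Liver RNA of 3 SHMT2 fl/fl and 3 SHMT2 HKO mice was analysed, grouped by the deposited labels (WT and KO). Per the submitters' processing notes, the authors trimmed reads with Trimmomatic 0.36, aligned them with STAR 2.5.2b to GRCm38 with ERCC sequences, and counted them per gene with featureCounts (Subread 1.5.2). The deposited values are these raw counts, without normalization, and use of strand was not given in the sources used here. The 92 ERCC entries stayed out of library sizes and tests.

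Genes passing filterByExpr (16089) were scaled by TMM and tested with the robust quasi-likelihood F test of edgeR 4.0.16 (R 4.3.3, two-sided) with Benjamini-Hochberg adjustment over all of them, and an adjusted p under 0.05 was a call. SEs and 95% intervals come from that fit. The code was tested on simulated data. CPM use TMM-scaled library sizes. A floor of 3 counts was 0.0734 to 0.152 CPM, and covers counting error only. The labels number the livers 1 to 3 in each group, and p-values measure the spread between these livers. No replicate pair agreed within sampling noise (chi-square per gene 26.9 to 150.7). Exon lengths and overlaps are from GENCODE M21 (GRCm38).

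Members and lists were chosen with earlier results of these data known. Named are all 38 members, with each liver's value for those called and for the most abundant of a class, and up to 4 called genes per other list by size. Some results of this rule are not reported here. The alternatives were DESeq2 1.42.0, limma-voom 3.58.1, library size, upper-quartile and ERCC scaling, 2 filters, non-robust dispersions, a block for the replicate number, and each liver left out in turn. Ratios within a liver were added after seeing the data.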

Additional observations from a re-analysis of the deposited data

How the results depend on the processing

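With library size in place of TMM, calls over all genes were 539 higher and 4923 lower and for the members 3 and 4, and 18 members had the other sign, none of them called with TMM. Their log2 differences were -0.33 for Rxrb, -0.31 for Nr0b2, -0.069 for Nr5a2, -0.076 for Nr1i2, -0.24 for Rara, -0.17 for Nr3c1, -0.34 for Nr3c2, -0.37 for Esr1, -0.20 for Esrra, -0.23 for Nr1d2, -0.083 for Rora, -0.031 for Nr2c1, -0.23 for Nr2c2, -0.32 for Nr2f6, -0.0055 for Hnf4a, -0.26 for Foxa3, -0.039 for Cebpb and -0.38 for Prox1. With ERCC scaling 107 genes and 0 members were called higher, and the 21 members with the other sign were Rxra at -0.27, Rxrb at -0.62, Nr1h3 at -0.072, Nr1h4 at -0.047, Nr0b2 at -0.45, Nr5a2 at -0.41, Nr1i2 at -0.29, Rara at -0.52, Nr3c1 at -0.44, Nr3c2 at -0.64, Esr1 at -0.68, Esrra at -0.46, Nr1d2 at -0.43, Rora at -0.34, Nr2c1 at -0.28, Nr2c2 at -0.38, Nr2f6 at -0.63, Hnf4a at -0.27, Foxa3 at -0.65, Cebpb at -0.097 and Prox1 at -0.70. With upper-quartile factors 2 members were called lower, and Nr0b2, Esr1 and Prox1 stood at -0.029, -0.020 and -0.043. With limma-voom Nr0b2 was at -0.0011. Over all genes 51.9% were positive with TMM, 20.5% with library size and 8.60% with ERCC scaling. The cause of these changes of sign and of calls was not tested.

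Without any single liver, calls over all genes were 805 to 2521 higher and 1621 to 3076 lower, and for the members 7 to 12 higher and 0 to 1 lower. Log2 differences that took both signs ranged over -0.36 to 0.34 for Nr0b2, -0.11 to 0.35 for Esr1, -0.16 to 0.18 for Prox1, -0.10 to 0.38 for Nr3c2, -0.13 to 0.29 for Nr1d2, -0.29 to 0.33 for Nr2c2, -0.18 to 0.66 for Cebpb and -0.053 to 0.35 for Foxa3. Ppara, Pparg, Nr1h4, Nr1i3, Thrb and Foxa2 were called in all 6 such fits, and the Shmt2 difference was -2.16 to -1.92.

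The replicate numbers were not used to pair livers, since same-numbered livers did not deviate together (correlations of -0.02, 0.07 and -0.11). With the number as a replicate block, 1397 genes were higher and 2187 lower, 9 members were higher and 1 lower, Rxrg lost its call (edgeR adjusted p = 0.0589), Nr0b2 stood at -0.011 and Shmt2 at -2.05. Depth limits Vdr, with 2 to 28 counts a liver. Nr0b2 and Cebpb had 271 counts or more in each liver, and their wide intervals go with the spread between livers, a coefficient of variation of 25.8% and 36.4% in fl/fl and 45.9% and 52.1% in HKO livers.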

Other observations

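Of 20 further liver transcription factors, 5 rose and 2 fell in SHMT2 HKO livers (12.5% and 16.5% of all genes), with a median log2 difference of 0.28 with TMM, -0.14 with library size and -0.45 with ERCC scaling. Onecut1, which encodes HNF6, a factor of hepatocyte and bile duct development, read 6.83, 7.79 and 7.15 CPM in fl/fl and 36.8, 24.8 and 54.7 CPM in HKO livers. Its groups lay far apart, and it rose by 2.42 on the log2 scale (edgeR adjusted p = 0.00127), more than any of the 38 members. Tbx3, a pericentral hepatocyte factor, rose by 1.23. Gata6 fell by 1.11 on the log2 scale.

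Of 14 clock genes, 1 rose and 0 fell (12.5% and 16.5% of all genes), with a median of 0.23 with TMM and -0.20 with library size. With library size and with ERCC scaling 0 were called higher and 1 lower. The gene that rose was Hlf, an output factor of the clock, at 34.0, 39.4 and 36.2 CPM in fl/fl and 60.8, 61.5 and 63.2 CPM in HKO livers (edgeR adjusted p = 0.00251). Of 8 immediate early genes, which respond to stimuli within a short time, 0 rose and 3 fell, namely Ier3, Egr1 and Junb, with log2 differences of -1.62, -1.23 and -0.88.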
